A study of Mus musculus with 24 samples.

Results

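The cytochrome P450 genes of mouse liver, apart from a named few of bile acid synthesis, were followed through the first hours of dietary methionine restriction. Members were taken by name, as every gene of the deposited table whose name begins with Cyp and a digit. Cyp7a1, Cyp7b1, Cyp8b1 and Cyp27a1, which act in bile acid synthesis, were left out. This gave 55 of the 9049 genes listed, from 59 with such a name. Cyp2c70, which forms muricholic acids, and the oxysterol hydroxylase Cyp39a1 were not among those left out and are members. Livers came from male C57BL6/J mice aged 2 months, all of which had been adapted to the control diet (Con, 0.86% methionine from elemental amino acids) and a reversed light cycle, with food taken away while the lights were on. When food was given back at lights off, the mice received the methionine-restricted diet (MR, 0.17% methionine) or stayed on Con. RNA was sequenced from 6 mice in each of 4 groups: MR for 6 h, Con for 6 h, MR for 3 h and Con for 3 h. Because the clock hour, the time since food returned and the time on the diet all differ between 6 h and 3 h, these cannot be told apart in a comparison of the times.

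P450 enzymes are haem proteins of the endoplasmic reticulum or mitochondria that use molecular oxygen, with electrons from Por or from ferredoxin, to oxidise drugs, steroids, fatty acids and vitamins. Liver holds most of those that clear foreign compounds, and many are read by the ligand-activated receptors AHR, CAR (Nr1i3), PXR (Nr1i2) and PPARA, by the clock-controlled PAR bZIP factors Dbp, Hlf and Tef, and, for a group of genes that differs between male and female mice, by the pulses of growth hormone. The letters after the family number mark subfamilies, which in mouse often lie side by side as copies with very similar sequence.

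All 55 names were found in the RefSeq annotation of GRCm38.p6, 54 by symbol and Cyp2c44 by synonym, and 2 of them (Cyp2d13 and Cyp2d37-ps) are annotated as pseudogenes. The largest clusters were 12 Cyp2c genes between 39287044 and 44029256 on chromosome 19, 7 Cyp2d genes between 82370527 and 82794452 on chromosome 15 and 6 Cyp4a genes between 115299046 and 115622507 on chromosome 4. The assay reads the 3′ ends of transcripts with 50-base reads. Among the 54 members with an annotated transcript, 29 shared at least 1 stretch of 50 bases within their last 500 with another gene, and in 4 of them (Cyp2c40, Cyp4a32, Cyp2c67 and Cyp2c68) at least 51.2% of these stretches were shared. How reads were divided among such copies is not given in the sources used here, so single values of these genes are uncertain. Sums over the subfamily, given for the larger ones, depend less on it where both copies are in the sum, but some copies that share stretches with members are not.

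The start region of Cyp26a1 is shown because this gene, which encodes the main retinoic acid hydroxylase of liver, had the largest called change of all members. It lies at chr19:37697738-37701536, and the 300-base window below covers chr19:37697558-37697857 on the + strand (GRCm38.p6, RefSeq). The capitals mark a pair of retinoic acid receptor half-sites in direct repeat, spaced by 5 bases and read here on the strand opposite to the form AGTTCA. The pair lies 32 to 16 bases before the start used for this window. That start and the repeats lie inside the gene span given above, which begins further upstream. A pair with these letters and spacing stood in 8 of 32851 mouse promoter windows of the same length (0.0244%), both strands searched. This motif was chosen after the values of Cyp26a1 were seen, and its letters are those of this window, so finding it here is no test. Other forms of the half-site were not searched at this spacing.
Cyp26a1: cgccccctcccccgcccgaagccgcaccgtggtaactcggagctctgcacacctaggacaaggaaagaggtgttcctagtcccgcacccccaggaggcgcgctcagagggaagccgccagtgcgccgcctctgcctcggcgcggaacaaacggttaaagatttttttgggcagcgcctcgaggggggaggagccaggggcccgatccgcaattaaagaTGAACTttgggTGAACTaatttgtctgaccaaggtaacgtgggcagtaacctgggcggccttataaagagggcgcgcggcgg

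Cyp2a4 and Cyp2a5 are shown because 1 of these livers (Con 6 h mouse m4238) was far from the others in Cyp2a4 but not in Cyp2a5, although their start regions are nearly the same. Cyp2a5 encodes the coumarin hydroxylase of mouse liver, and Cyp2a4 a testosterone hydroxylase that is higher in female than in male mouse liver. The windows cover chr7:26306942-26307241 for Cyp2a4 and chr7:26835089-26835388 for Cyp2a5, both on the + strand (GRCm38.p6, RefSeq). Of 299 aligned bases 294 (98.3%) were identical, and the capitals mark the 5 aligned bases that differ and 1 unaligned base at one end of each window.
Cyp2a4: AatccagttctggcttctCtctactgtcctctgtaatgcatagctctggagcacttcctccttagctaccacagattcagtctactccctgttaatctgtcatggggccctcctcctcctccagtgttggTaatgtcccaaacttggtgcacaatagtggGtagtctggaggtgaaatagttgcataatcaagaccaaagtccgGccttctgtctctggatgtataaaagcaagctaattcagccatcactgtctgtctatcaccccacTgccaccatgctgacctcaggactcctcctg
Cyp2a5: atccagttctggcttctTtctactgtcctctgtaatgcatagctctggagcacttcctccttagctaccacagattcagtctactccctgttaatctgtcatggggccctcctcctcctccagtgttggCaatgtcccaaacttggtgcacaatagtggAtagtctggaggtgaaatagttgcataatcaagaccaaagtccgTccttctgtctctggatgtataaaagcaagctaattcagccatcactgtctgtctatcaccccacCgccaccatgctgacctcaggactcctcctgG

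A set of 3 libraries stood apart from the rest, and the results that rest on them are given with and without them. Con 6 h mouse m4238 lay outside the range of the other 23 mice for 28.5% of all 9049 genes, against 3.14% to 14.1% for each other mouse. MR 6 h mouse m4214 carried adrenal cortex transcripts, with 646 units summed over the 7 measured of 12 listed adrenal markers, against at most 197 in the others. Exocrine pancreas transcripts were present in MR 3 h mouse m4223, with 1675 units over 9 markers, against at most 47.5. The part of these transcripts in the P450 values was not tested, except where a value below bears on it. The hepatocyte markers, 10 of 10 listed, summed to between 135960.0 and 184800.0 units over all mice. A unit is that of the deposited table, in which each library sums to between 991702 and 995314, rescaled here between libraries (TMM). Since 3′ tags were read, a unit does not grow with transcript length.

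P450 transcripts made up a similar share of each library. Their sum was 2.16%, 2.31% and 2.47% of all units (lowest, median and highest mouse) in MR at 6 h, against 1.81%, 2.34% and 2.51% in Con at 6 h. At 3 h it was 2.21%, 2.46% and 2.79% in MR, against 1.92%, 2.37% and 2.56% in Con. The groups overlapped, and the lowest value was that of m4238. In all, 5 genes had a mean of at least 1000 units, 29 of at least 100 and 46 of at least 10, while 9 stayed below 10 units. Cyp2e1, which oxidises ethanol and small solvents, averaged 7592 units over the 24 mice and alone held 32.5% of all P450 units. It was followed by Cyp2f2, known for naphthalene oxidation (1706 units), Cyp2d9, a testosterone hydroxylase of male mouse liver (1486 units), and Cyp3a11, the main PXR-inducible drug-oxidising enzyme (1365 units). Cyp2c70, which forms muricholic acids in mouse, had 1163 units, Cyp2d10 957, Cyp2a12 882 and Cyp2d26 789.5. These 8 genes together made 68.3% of the P450 units. By function, the 31 genes of the xenobiotic and broad families held 89.98% of the units, 16 of fatty acid and eicosanoid oxidation 9.02%, 4 of sterol and steroid metabolism 0.821%, 3 of vitamin A and D metabolism 0.117% and the orphan Cyp20a1 0.0565%.

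Whether MR acts on the P450 genes within hours was asked by setting MR against Con at each time. At 6 h none of the 55 genes passed the threshold (adjusted p under 0.05, Benjamini-Hochberg over all 9049 genes, limma), while 67 genes of the table did (0.74%). At an unadjusted p under 0.05 there were 4 P450 genes (7.27%), against 14.2% of all genes. All 4 were higher in MR: Cyp39a1, Cyp26a1, Cyp2d10 and Cyp2d13. In no P450 gene did the 2 diets separate without overlap at 6 h, which 1.6% of all genes did. The median log2 fold change of the members was 0.11, against 0.01 over all genes, with 42 positive and 13 negative. Without m4238 the median was 0.01 and the signs were 29 positive and 26 negative, none of the members passed (0.553% of all genes did), and the smallest adjusted p among them was 0.0852 (Cyp39a1, limma).

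**Figure D1:**
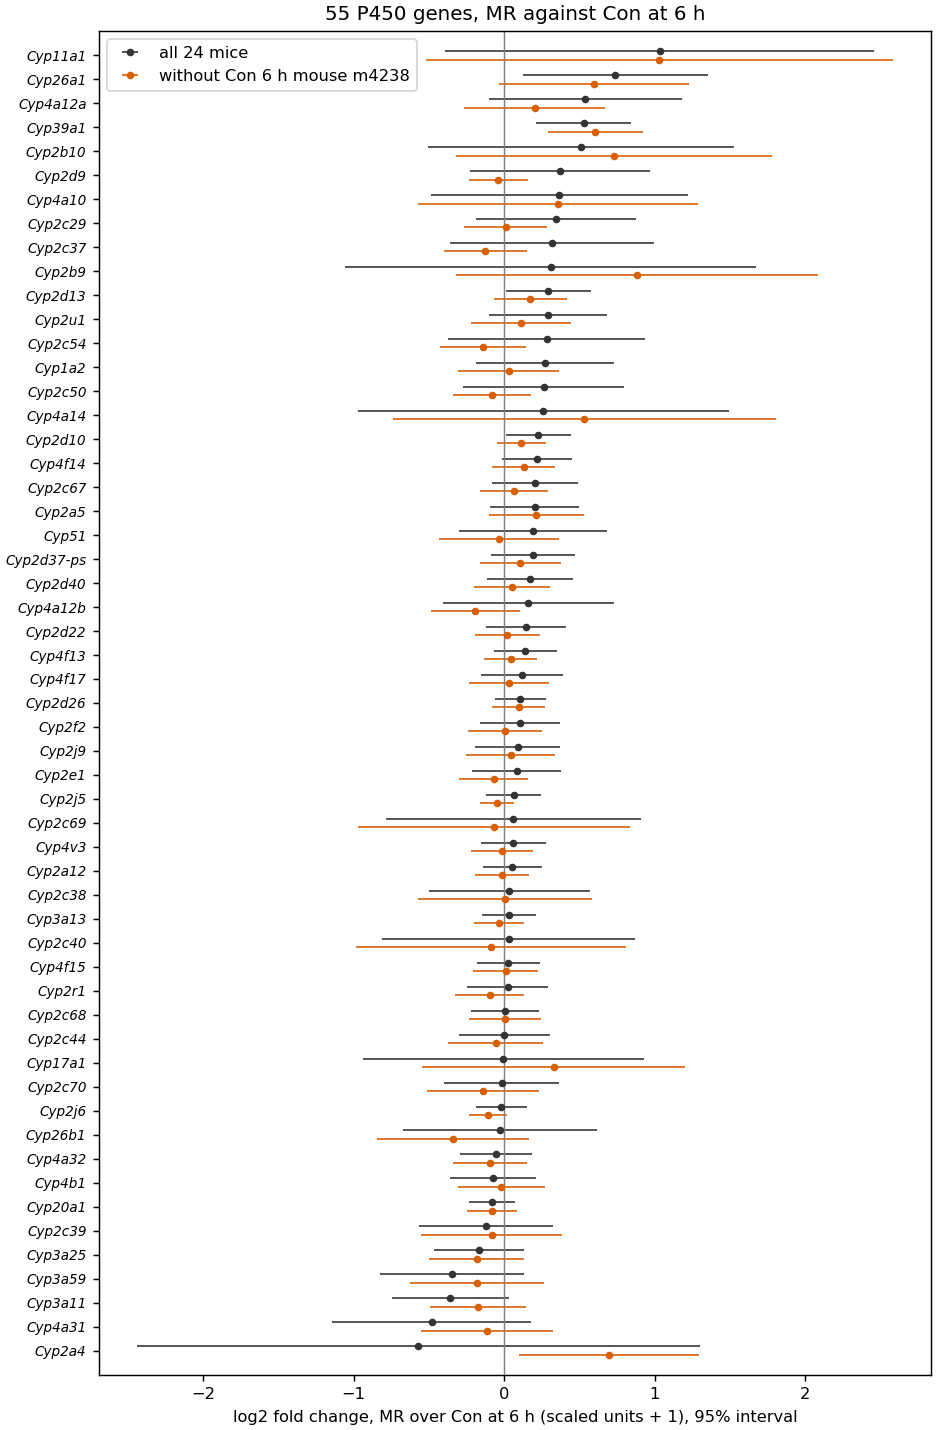
Log2 fold change of the 55 P450 genes, MR over Con at 6 h, on the log2(scaled units + 1) scale, with its 95% interval, from all 24 mice (black) and without Con 6 h mouse m4238 (orange). Genes run from the highest value at the top to the lowest at the bottom. Most black points lie right of 0 (42 of 55), while the orange points lie on both sides (29 positive, 26 negative).

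Cyp39a1, an oxysterol hydroxylase (chr17:43667372-43751431), had the smallest p of the members at 6 h. Its levels were 58.3, 71.2 and 94.2 units (lowest, median and highest of 6 mice) in MR, against 37.6, 48.6 and 69.7 units in Con. All 6 MR mice lay above the median of Con and 3 above its highest mouse, so the groups overlapped. The log2 fold change was 0.53 (SE 0.15, limma adjusted p = 0.114), with a 95% interval of 0.21 to 0.85, and permuting the diet labels of the 12 mice in full gave an exact two-sided p of 0.0195. Leaving out Con mouse m4241 gave 0.62 and brought it past the threshold (adjusted p = 0.0473, limma), while leaving out MR mouse m4219 gave an adjusted p of 0.246 (limma). At 3 h the log2 fold change was 0.24 (SE 0.15, limma adjusted p = 0.765), and the difference between the effects at 6 h and 3 h was 0.29 (SE 0.22, limma adjusted p = 0.831).

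Cyp26a1 had 19.4, 27.9 and 50.1 units in MR at 6 h, against 10.9, 16.2 and 37.7 units in Con. All MR mice lay above the median of Con, yet the groups overlapped. The log2 fold change was 0.74 (SE 0.30, limma adjusted p = 0.274), and 0.60 without m4238 (adjusted p = 0.445, limma). The other 2 members with an unadjusted p under 0.05 belong to the Cyp2d cluster. Cyp2d10 had 950.3, 1019 and 1198 units in MR, against 596, 934 and 1057 units in Con, and Cyp2d13, annotated as a pseudogene, 196, 230.1 and 279 units in MR, against 121, 199 and 219.5 units in Con. In both the lowest mouse was m4238. Their log2 fold changes were 0.23 and 0.29 with all mice (adjusted p = 0.341 and 0.339, limma), and 0.11 and 0.17 without it.

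None of the most abundant members passed between the diets. Cyp2e1 had 6236, 6712 and 7708 units in MR at 6 h, against 3807, 7095 and 7768 units in Con, with a log2 fold change of 0.08 (SE 0.14, limma adjusted p = 0.811) and a 95% interval of −0.21 to 0.38. For Cyp2f2 the levels were 1647, 1733 and 1927 units in MR, against 1174, 1621 and 2256 units in Con, and the interval was −0.16 to 0.37. Cyp2d9, male-biased, had 1234, 1337 and 1621 units in MR, against 259, 1442 and 1525 units in Con, and its log2 fold change of 0.37 (adjusted p = 0.57, limma) became −0.04 without m4238. Cyp2a12 (0.05), Cyp2d26 (0.11) and Cyp2c70 (−0.02) did not pass either (adjusted p = 0.813, 0.551 and 0.973, limma).

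The members that report on the xenobiotic receptors were set side by side at 6 h. Cyp1a2, the caffeine-oxidising AHR target, had 427, 453 and 534 units in MR, against 168, 433 and 545 units in Con (log2 fold change 0.27, SE 0.22, adjusted p = 0.59, limma, and 0.03 without m4238). Cyp2b10, the classical CAR target, was low in all mice, with 0.981, 3.10 and 5.83 units in MR, against 0, 1.02 and 6.24 units in Con (log2 fold change 0.51, SE 0.49, adjusted p = 0.643, limma). Neither passed, and in both the groups overlapped. Cyp3a11 had 999, 1408 and 1577 units in MR, against 1367, 1526 and 3238 units in Con, the highest Con mouse being m4238. Its log2 fold change was −0.36 (SE 0.19, limma adjusted p = 0.385), and −0.17 without that mouse. Cyp2c29, another gene known to respond to CAR, had 722, 895 and 983 units in MR, against 212, 824 and 975 units in Con, and 0.35 on the log2 scale became 0.01 without m4238.

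Cyp4a10 and Cyp4a14, fatty acid hydroxylases read by PPARA, varied widely within each group. Cyp4a10 had 238, 672 and 1094 units in MR at 6 h, against 255, 466 and 757 units in Con, and Cyp4a14 38.8, 185 and 427 units in MR, against 55.3, 136 and 366 units in Con. The log2 fold changes of 0.37 and 0.26 had 95% intervals of −0.49 to 1.2 and −0.97 to 1.49 (adjusted p = 0.698 and 0.864, limma). Both intervals reach beyond 1 on the log2 scale, so a change of that size lies within them. Cyp4a12a, a male-biased arachidonic acid hydroxylase, had 179, 246 and 319.6 units in MR, against 52.0, 221 and 268 units in Con, a log2 fold change of 0.54 (SE 0.31, limma adjusted p = 0.429) that was 0.20 without m4238. Among the other genes named for this comparison, Cyp2a4 (−0.57, and 0.70 without m4238), Cyp26b1 (−0.03), Cyp2r1 (0.02) and Cyp11a1 (1.03, carried by m4214 alone) did not pass. Of the sterol genes, Cyp51, the lanosterol demethylase of cholesterol synthesis, had 108, 146 and 209 units in MR, against 57.5, 143 and 186 units in Con (log2 fold change 0.19, SE 0.24, adjusted p = 0.73, limma). Cyp17a1, a steroid hydroxylase, had 9.72, 17.6 and 39.2 units in MR, against 6.04, 15.3 and 61.1 units in Con (log2 fold change 0.00, SE 0.45, adjusted p = 0.997, limma), and 0.33 without m4238.

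Summed over the subfamily, the diets also overlapped. Members of the Cyp2d sum share stretches with Cyp2d11, Cyp2d12 and Cyp2d34, among others, which are not in it. The 12 Cyp2c genes summed to 4199.8, 4291 and 4745 units in MR at 6 h, against 2129.8, 4492 and 5714 units in Con. The 7 Cyp2d genes summed to 3572, 3825 and 4495 units in MR, against 1951, 3711 and 3985 units in Con. In both the lowest mouse was m4238, and the log2 ratios of the mean sums, 0.06 for Cyp2c and 0.18 for Cyp2d, were −0.08 and 0.06 without it. The 4 Cyp3a genes summed to 1607, 1991 and 2259 units in MR, against 2005, 2168 and 3854 units in Con, where m4238 was the highest, with a log2 ratio of −0.33, and −0.16 without it. The 6 Cyp4a genes summed to 599, 1209 and 1854 units in MR, against 658, 894 and 1326 units in Con (log2 ratio 0.34, and 0.33 without m4238). Of the remaining genes, Cyp2u1 (0.29), Cyp4f14 (0.22), Cyp2j9 (0.09), Cyp4v3 (0.06), Cyp20a1 (−0.08) and Cyp4b1 (−0.07) did not pass (adjusted p from 0.372 to 0.829, limma).

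At 3 h the diets overlapped in every member, while 0.199% of all genes separated without overlap. No gene of the table passed between MR and Con (0%; 603 had an unadjusted p under 0.05 in limma), and 1 P450 gene had an unadjusted p under 0.05 (1.82%), against 6.66% of all genes. That gene was Cyp2c68, with 349, 453 and 605 units in MR, against 313, 397 and 462 units in Con, in overlapping groups (log2 fold change 0.24, SE 0.11, adjusted p = 0.739, limma). It shares 51.2% of the 50-base stretches of its 3′ end with Cyp2c40 and others. The median of the members was 0.05, against 0.00 over all genes, with 38 positive and 16 negative (Cyp11a1 was listed at 0 in all mice at 3 h). The difference between the diet effects at 6 h and at 3 h passed for 6 genes of the table (0.0663%) and for none of the members. One P450 gene, Cyp2d13, had an unadjusted p under 0.05 for this difference (1.82%, against 6.83% of all genes), with 0.43 (SE 0.19, limma adjusted p = 0.677), and 0.30 without m4238.

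More of these genes passed between the times than between the diets. From all mice, 7 of 55 P450 genes (12.7%) passed between 6 h and 3 h on Con, against 19.6% of all genes, and 9 (16.4%) on MR, against 28.1% of all genes. On Con, 6 were higher at 6 h, against 9.23% of all genes, and 1 lower, against 10.4%. On MR, 8 were higher, against 13.9%, and 1 lower, against 14.2%. Without m4238 there were 12 on Con (23.1% of all genes) and 14 on MR (31.4% of all genes). The mouse enters the mean of Con at 6 h and, for both diets, the estimate of the spread shared by all groups. The comparisons use different mice, and 5 genes were called in both: Cyp26a1, Cyp26b1, Cyp2r1 and Cyp20a1 higher and Cyp2a5 lower at 6 h, which is 71.4% of those called on Con and 55.6% of those called on MR. Over all genes 1302 were called in both, 73.4% of those called on Con and 51.2% of those called on MR. Cyp3a11 and Cyp2c38 were called on Con alone and Cyp51, Cyp4f14, Cyp2j9 and Cyp2b9 on MR alone, but the difference between the diets did not pass for any of the 6.

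**Figure D2:**
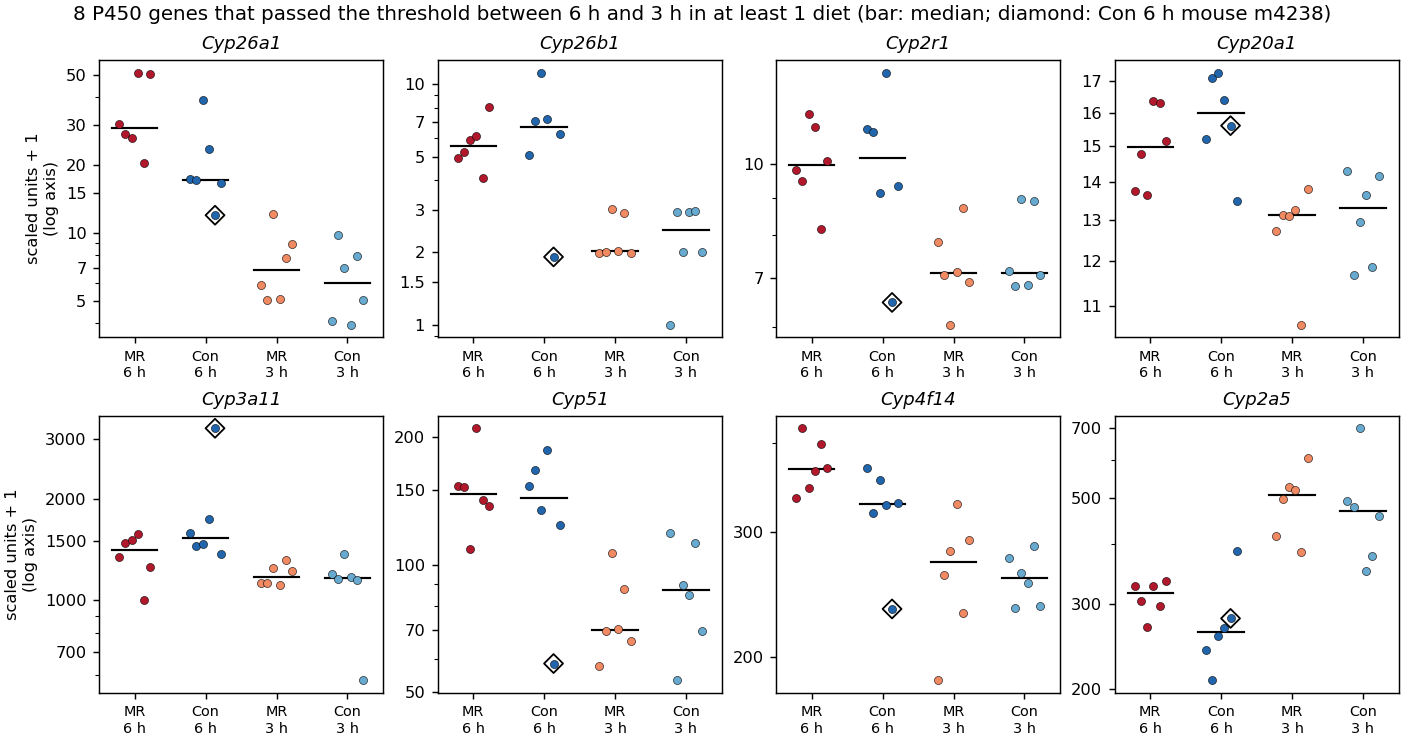
Levels of 8 P450 genes in each of the 24 mice, as scaled units + 1 on a log axis, by diet and time. Points are mice, bars are group medians and the diamond marks Con 6 h mouse m4238. Cyp26a1 at 6 h lies above every 3 h mouse of the same diet, and Cyp2a5 at 6 h on MR lies below every MR 3 h mouse.

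The 3 genes of vitamin A and D metabolism were higher at 6 h on both diets. Cyp26a1 had 19.4, 27.9 and 50.1 units on MR at 6 h, against 4.05, 5.81 and 11.1 units at 3 h. Con mice had 10.9, 16.2 and 37.7 units at 6 h, against 2.92, 5.01 and 8.74 units at 3 h. The times did not overlap on either diet. Its log2 fold change was 2.20 (SE 0.30, limma adjusted p = 1.00e-05) on MR and 1.71 (SE 0.30, limma adjusted p = 3.39e-04) on Con, and the exact two-sided permutation p of 0.00216 in each is the smallest that 6 mice against 6 allow. Leaving out any 1 mouse kept the log2 fold change between 2.06 and 2.35 on MR and between 1.51 and 1.86 on Con, past the threshold each time.

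Cyp26b1 (chr6:84571414-84593908), the other retinoic acid hydroxylase listed, was much lower, at a few units, where rounding in the deposited table leaves few possible values. It had 3.06, 4.55 and 7.08 units on MR at 6 h, against 0.977, 1.02 and 2.02 units at 3 h, without overlap. On Con it had 0.912, 5.62 and 10.2 units at 6 h, against 0, 1.48 and 1.97 units at 3 h, and the groups overlapped because of m4238, the lowest mouse, while the other 5 had at least 4.06. The log2 fold changes were 1.29 (SE 0.31, limma adjusted p = 0.00309) on MR and 1.39 (SE 0.31, limma adjusted p = 0.00283) on Con, and 1.70 on Con without m4238. Cyp2r1, the vitamin D hydroxylase of liver (chr7:114550123-114563048), had 7.14, 8.96 and 10.7 units on MR at 6 h, against 5.04, 6.10 and 7.70 units at 3 h. On Con it had 5.48, 9.19 and 12.3 units at 6 h, against 5.83, 6.10 and 7.97 units at 3 h. Both pairs overlapped, and the log2 fold changes were 0.47 (SE 0.13, limma adjusted p = 0.00868) on MR and 0.38 (SE 0.13, limma adjusted p = 0.0431) on Con. The call on Con was lost without any 1 of Con 3 h mice m4205, m4215, m4218 and m4233 or Con 6 h mice m4221, m4222, m4231 and m4234 (adjusted p from 0.0512 to 0.122, limma), and was clearer without m4238 (0.50, adjusted p = 0.00242, limma).

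Of the 31 xenobiotic and broad genes, 3 passed on Con (2 higher, 1 lower) and 2 on MR (1 higher, 1 lower), 9.68% and 6.45%, against 19.6% and 28.1% of all genes. Cyp2a5 (chr7:26835339-26843264) was the lower one on both. It had 267, 315 and 334 units on MR at 6 h, against 384, 507 and 604 units at 3 h, without overlap. Con mice had 207, 262 and 387 units at 6 h, against 350.2, 468 and 698 units at 3 h, with 5 of 6 mice below the lowest 3 h mouse. It fell by 0.65 on the log2 scale on MR (standard error 0.14, adjusted p = 0.00138, limma) and by 0.79 on Con (standard error 0.14, adjusted p = 4.40e-04, limma). It shares 12.4% of the 50-base stretches of its 3′ end with Cyp2a4, which had at most 1.97 units in every mouse but m4238.

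Cyp3a11 (chr5:145854607-145879854) rose on Con. It had 1367, 1526 and 3238 units on Con at 6 h, against 578, 1161 and 1369 units at 3 h, with 5 of 6 mice above the highest 3 h mouse. On MR it had 999, 1408 and 1577 units at 6 h, against 1112, 1172 and 1317 units at 3 h. The log2 fold changes were 0.69 (SE 0.19, limma adjusted p = 0.0113) on Con and 0.18 (SE 0.19, limma adjusted p = 0.52) on MR, and their difference, the interaction, was −0.51 (SE 0.26, limma adjusted p = 0.746). On Con it was 0.51 without m4238, still past the threshold (adjusted p = 0.0203, limma), but the call was lost when only the libraries of the groups compared were fitted (adjusted p = 0.0695, limma). Cyp2c38, whose 3′ end shared no stretch with another gene, had 14.2, 19.6 and 38.0 units on Con at 6 h, against 6.07, 11.5 and 16.5 units at 3 h, and 15.7, 20.3 and 34.8 units on MR at 6 h, against 9.19, 17.7 and 24.2 units at 3 h. The log2 fold changes were 0.84 (SE 0.26, limma adjusted p = 0.0238) on Con and 0.45 (SE 0.26, limma adjusted p = 0.207) on MR. Its call on Con was lost without Con 3 h mouse m4233 (adjusted p = 0.0675, limma) or Con 6 h mouse m4234 (adjusted p = 0.0697, limma). Cyp2b9, a female-biased gene, had 1.96, 7.22 and 20.5 units on MR at 6 h, against 0, 0.973 and 3.02 units at 3 h (log2 fold change 1.97, SE 0.66, adjusted p = 0.0289, limma). That call was lost without any 1 of MR 3 h mice m4204 and m4210 or MR 6 h mice m4228, m4229 and m4242 (adjusted p from 0.0519 to 0.0759, limma).

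In the classes of lipid oxidation and sterols, 2 of 16 fatty acid and eicosanoid genes and 1 of 4 sterol and steroid genes passed on MR, all higher at 6 h (13.9% of all genes were), and none on Con (19.6% of all genes passed). With so few genes called, these counts say little of the classes. Cyp51 (chr5:4080674-4104697) had 108, 146 and 209 units on MR at 6 h, against 56.7, 69.1 and 106 units at 3 h, without overlap. On Con it had 57.5, 143 and 186 units at 6 h, against 52.4, 86.1 and 118 units at 3 h, the lowest 6 h mouse being m4238. Its log2 fold change was 0.98 (SE 0.24, limma adjusted p = 0.00322) on MR and 0.60 (SE 0.24, limma adjusted p = 0.0758) on Con, and 0.83 on Con without m4238 (adjusted p = 0.00349, limma). Cyp4f14, which hydroxylates leukotrienes, had 334, 366 and 418 units on MR at 6 h, against 185, 271 and 327 units at 3 h, without overlap (log2 fold change 0.52, SE 0.11, adjusted p = 0.00118, limma). On Con its log2 fold change was 0.31 (SE 0.11, limma adjusted p = 0.055), and 0.39 without m4238 (adjusted p = 0.00684, limma). It also passed on Con without Con 3 h mouse m4220 (0.34, adjusted p = 0.0457, limma) or without MR 3 h mouse m4204 or m4210, which enter only the shared spread (adjusted p = 0.0252 and 0.0431, limma). Cyp2j9, a member of a subfamily of arachidonic acid epoxygenases, had 3.06, 5.01 and 6.07 units on MR at 6 h, against 2.02, 3.01 and 4.03 units at 3 h (log2 fold change 0.51, SE 0.14, adjusted p = 0.00739, limma). The orphan Cyp20a1 had 12.6, 13.96 and 15.3 units on MR at 6 h, against 9.62, 12.1 and 12.8 units at 3 h, and 12.5, 15.002 and 16.3 units on Con at 6 h, against 10.7, 12.3 and 13.3 units at 3 h. It rose by 0.23 (SE 0.07, limma adjusted p = 0.0214) on MR and 0.27 (SE 0.07, limma adjusted p = 0.0112) on Con, the call on MR being lost without MR 3 h mouse m4216 or MR 6 h mouse m4229 or m4239 (adjusted p from 0.0525 to 0.0654, limma).

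**Figure D3:**
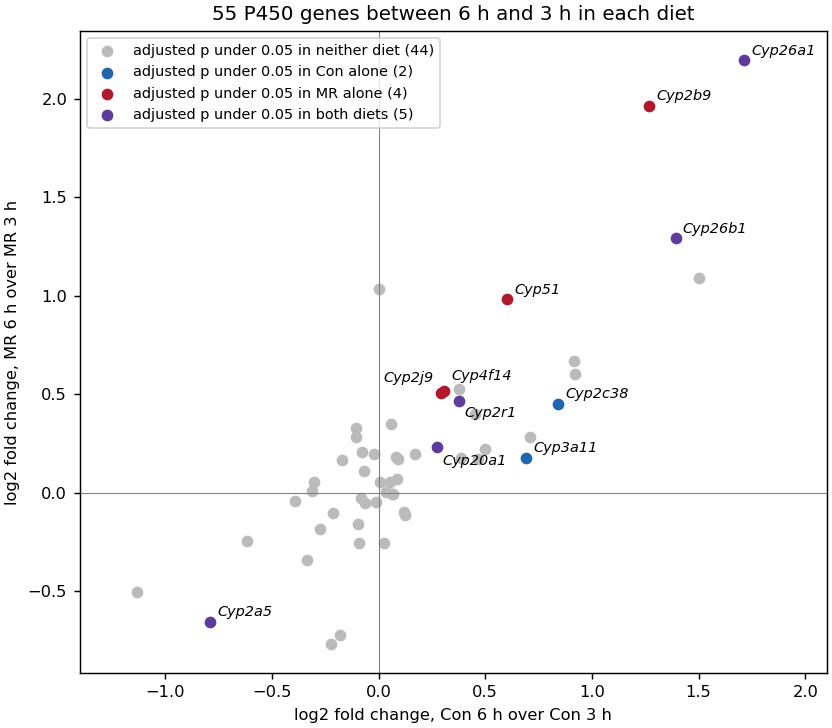
Log2 fold change of the 55 P450 genes between 6 h and 3 h, on Con (horizontal axis) and on MR (vertical axis), on the log2(scaled units + 1) scale. Each point is a gene, coloured by the diets in which its adjusted p was under 0.05 (5 genes in both, 2 on Con alone, 4 on MR alone, 44 in neither). Cyp26a1 lies farthest to the upper right, at 1.71 on Con and 2.20 on MR, and Cyp2a5 at the lower left, at −0.79 and −0.65.

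Several further members did not pass between the times with all mice but did without m4238, and some of them also without another mouse. Cyp2c29 had 722, 895 and 983 units on MR at 6 h, against 500.2, 561 and 766 units at 3 h. On Con it had 708, 830.4 and 975 units at 6 h in the 5 mice other than m4238, which had 212, against 425, 485 and 712 units at 3 h. Without that mouse it rose by 0.52 (SE 0.13, limma adjusted p = 0.00311) on MR and 0.71 (SE 0.13, limma adjusted p = 4.99e-04) on Con, while with it the values of 0.53 and 0.38 did not pass. Cyp2j5, an arachidonic acid epoxygenase, had 478, 522 and 545 units on MR at 6 h, against 424, 449 and 473 units at 3 h, without overlap. Its log2 fold changes without m4238 were 0.19 (SE 0.05, limma adjusted p = 0.00856) on MR and 0.28 (SE 0.05, limma adjusted p = 7.90e-04) on Con, and 0.20 and 0.17 with it, neither passing. Cyp2e1 had 6236, 6712 and 7708 units on MR at 6 h, against 6969, 8781 and 10043 units at 3 h, with 4 of 6 mice below the lowest 3 h mouse. Its log2 fold change on MR was −0.34 (SE 0.14, limma adjusted p = 0.0804) with all mice and −0.35 (SE 0.11, limma adjusted p = 0.0134) without m4238, and it also passed without MR 3 h mouse m4216 (−0.40, adjusted p = 0.0478, limma). On Con it was −0.33 (SE 0.14, limma adjusted p = 0.103), and past the threshold without Con 3 h mouse m4220 (−0.42, adjusted p = 0.0436, limma). Cyp2d9 likewise passed as lower at 6 h on MR without m4238 (log2 fold change −0.26, SE 0.09, adjusted p = 0.0345, limma), Cyp2d13 as higher there (log2 fold change 0.32, SE 0.11, adjusted p = 0.033, limma) and Cyp2c54 as higher on Con (log2 fold change 0.40, SE 0.14, adjusted p = 0.0408, limma, against −0.02 with all mice). Without m4238, m4223 and m4214 together, Cyp2c54 on Con (0.40, adjusted p = 0.0537, limma) and Cyp2d13 on MR (0.29, adjusted p = 0.0592, limma) did not pass. Cyp2d13 on MR did pass without MR 3 h mouse m4208 (0.39, adjusted p = 0.041, limma) or m4209 (0.39, adjusted p = 0.0455, limma). By overlap of the mice alone, with no fit, Cyp26a1, Cyp26b1, Cyp51, Cyp4f14 and Cyp2j5 were higher and Cyp2a5 lower in every MR mouse at 6 h than in every MR mouse at 3 h (6 of 55 members, against 15.5% of all genes), and on Con only Cyp26a1 separated in this way (6.09% of all genes).

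A single liver departed from this order in many P450 genes at once. Con 6 h mouse m4238 lay outside the range of all other 23 mice in 28 of 55 P450 genes (50.9%), 6 above and 22 below, against 28.5% of all genes in the same mouse. Each other mouse did so in 0% to 14.5% of the members. Cyp2a4, which is known to be low in male liver, had 258 units in m4238, while the other 23 mice had 0 to 1.97 units. The other 5 genes above the range were Cyp2b9 (42.0 units, others 0 to 20.5), Cyp3a11 (3238, others 578 to 1745), Cyp4a31 (30.1, others 2.04 to 8.14), Cyp17a1 (61.1, others 6.04 to 42.7) and Cyp3a59 (31.9, others 8.19 to 24.6). The start regions of Cyp2a4 and Cyp2a5 are nearly the same. Of the 50-base stretches of the Cyp2a4 3′ end, 44.3% are shared with Cyp2a5 or Cyp2a21-ps. Of those of the Cyp2a5 3′ end, 12.4% are shared with Cyp2a4, so the division of reads between the 2 genes is uncertain. Cyp2a5 stood at 279 units in m4238, within the 207 to 387 units of the other 5 Con 6 h mice.

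The genes below the range included members known to be higher in male than in female mouse liver. Cyp2d9 had 259 units in m4238, while the other 23 mice had 1234 to 1913 units. Cyp4a12a had 52.0 units, with 130.1 to 378 in the others, and Cyp4a12b 12.8, with 38.5 to 73.7. These are all 3 listed male-biased P450 genes. Of the 9 listed female-biased genes only 4 were measured. Cyp2a4 and Cyp2b9 were above the range of the other mice, while Cyp2c40 and Cyp2c69 were within it. Several genes of the Cyp2c cluster were also low, with 38.3 units of Cyp2c37 (176 to 307 in the others), 74.8 of Cyp2c54 (248 to 547), 130.5 of Cyp2c50 (346 to 591) and 212 of Cyp2c29 (425 to 983). Cyp2c54, Cyp2c50 and Cyp2c29 are among the listed pericentral genes. Cyp1a2 (168 units, others 313 to 629) and Cyp2e1 (3807 units, others 6135 to 10045), listed as pericentral too, were low as well, and so was periportal Cyp2f2 (1174 units, others 1271 to 2256). Of the remaining listed pericentral P450 genes, Cyp3a11 was above the range of the others, and Cyp2a5 (279 units, others 207 to 698) within it. Outside the P450 genes, Hsd3b5, a steroid dehydrogenase of male mouse liver, had 59.3 units in m4238 (338 to 579 in the others). The Y-linked Ddx3y, at 41.1 units, lay within the 29.4 to 50.0 units of the others, and Eif2s3y, at 28.3, just below their 31.4 to 43.0, and both were detected. Kupffer cell markers summed to 883 units over 8 of 8 genes in m4238, against 283 to 471 in the other mice. Endothelial markers summed to 162 over 6 of 6, against 98.2 to 147, and stellate cell markers to 531 over 4 of 7, against 321 to 460. The part of these cells in the P450 values was not tested, and in whole liver fewer cells of a type and less RNA per cell cannot be told apart.

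**Figure D4:**
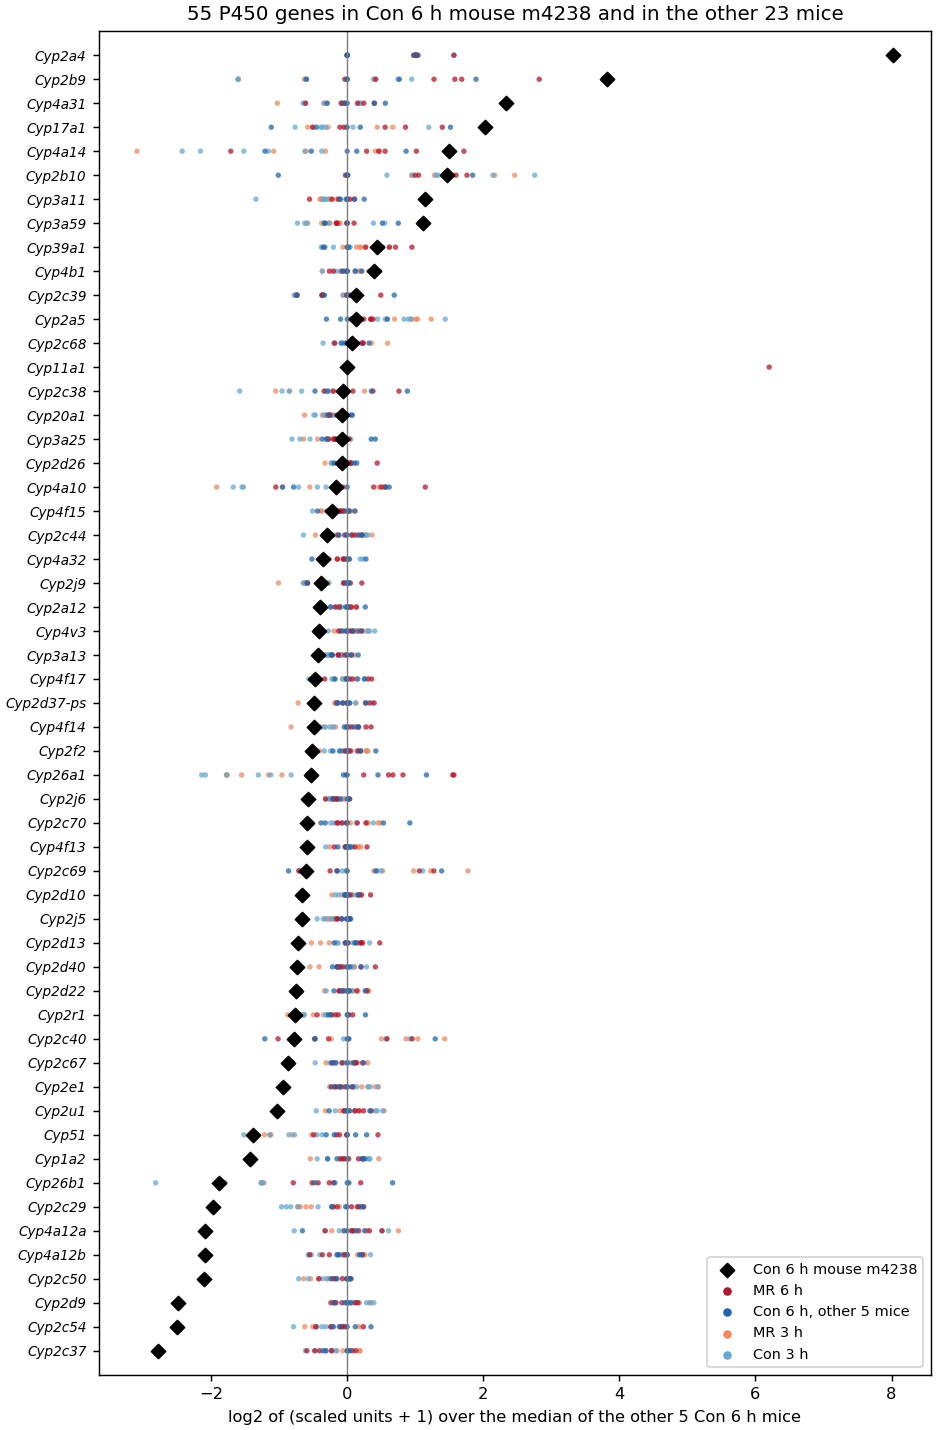
Level of each of the 55 P450 genes in Con 6 h mouse m4238 (black diamonds) and in the other 23 mice (coloured points), as log2 of (scaled units + 1) relative to the median of the other 5 Con 6 h mice. Genes run from the highest in m4238 at the top to the lowest at the bottom. The diamond of Cyp2a4 (258 units) lies far right of every other mouse, and those of Cyp2c37, Cyp2c54 and Cyp2d9 far left.

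Another single liver carried a P450 gene that no other did. Cyp11a1, the side-chain cleavage enzyme that starts steroid synthesis in adrenal and gonad, had 72.6 units in MR 6 h mouse m4214 and was listed at 0 in the other 23. In the same liver Star had 82.4 units (at most 2.08 in the others), Hsd3b1 210 units (at most 1.99) and Akr1b7 96.1 units (at most 1.83), all genes of the adrenal cortex. Fdx1 (47.1 units, others 31.0 to 62.7) and Scarb1 (118 units, others 80.6 to 135), also on the adrenal list, were within the range of the others. The fat marker Fabp4, the only 1 of 4 listed fat markers that was measured, had 215 units (at most 94.8). In no other member was m4214 outside the range of the other mice.

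The members differed greatly in how much mice of the same group varied. Among genes with a mean of at least 10 units the pooled SD within groups, on the log2 scale, was widest for Cyp2a4 (1.63), which passes that minimum and leads only through m4238 (0.51 without it). It was followed by Cyp4a14 (1.08, and 1.05 without m4238), Cyp17a1 (0.81, and 0.72), Cyp4a10 (0.75, and 0.77), Cyp2c69 (0.74 either way) and Cyp2c40 (0.74 either way). For Cyp2e1 it was 0.26, and 0.19 without m4238, and for Cyp2d9 0.525, and 0.16 without m4238. Cyp4a10 and Cyp4a14, neighbours in the Cyp4a cluster, had their lowest values in the same mice. The lowest mouse of each group was the same for both genes: m4239 in MR 6 h, m4222 in Con 6 h, m4210 in MR 3 h and m4233 in Con 3 h. The highest mouse was the same in MR 6 h (m4229) but differed between the genes in Con 6 h, MR 3 h and Con 3 h. The 3′ end of Cyp4a14 shared no 50-base stretch with another gene. Cyp2c40 and Cyp2c69 likewise had the same lowest mouse in each group (m4214 in MR 6 h, m4241 in Con 6 h, m4210 in MR 3 h and m4220 in Con 3 h) and the same highest mouse (m4228, m4231, m4216 and m4218 in that order). These genes share stretches of their 3′ ends (74.3% for Cyp2c40 and 38.4% for Cyp2c69), so their values may hold the same reads.

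Cyp2c40 ran over 21.6, 34.2 and 87.5 units in MR at 6 h, 18.7, 38.2 and 111 units in Con at 6 h, 37.8, 72.9 and 122 units in MR at 3 h and 24.7, 44.2 and 85.6 units in Con at 3 h. Every group held mice several times apart. At 3 h Cyp4a10 had 129.7, 395 and 713 units in MR, against 154, 235 and 397 units in Con, and Cyp4a14 14.3, 94.0 and 180.0 units in MR, against 23.3, 50.9 and 99.6 units in Con. Between 6 h and 3 h Cyp4a14 had log2 fold changes of 1.09 (SE 0.59, limma adjusted p = 0.187) on MR and 1.503 (SE 0.59, limma adjusted p = 0.0789) on Con, and Cyp4a10 of 0.67 on MR and 0.91 on Con (adjusted p = 0.245 and 0.125, limma). None of these passed.

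**Figure D5:**
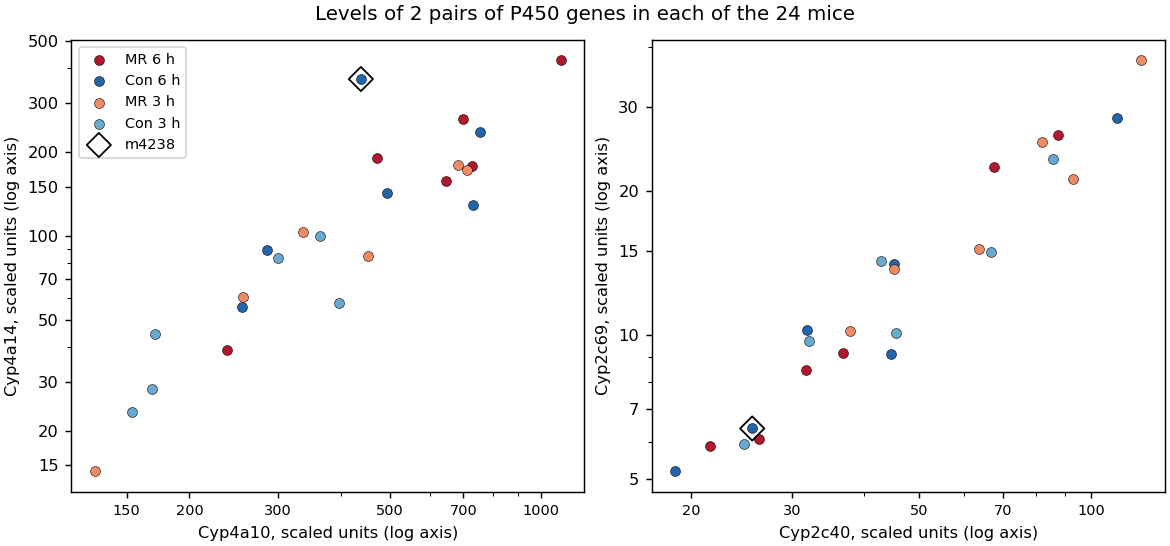
Levels of Cyp4a10 against Cyp4a14 (left) and of Cyp2c40 against Cyp2c69 (right) in each of the 24 mice, in scaled units on log axes. Colours give diet and time, and the open diamond marks Con 6 h mouse m4238. Cyp4a10 runs from 130 to 1094 units and Cyp4a14 from 14.3 to 427 units, and the lowest mouse of each group is the same for both genes of a panel.

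Some of the proteins and factors that P450 enzymes depend on passed between the times as well. These lists were chosen with results of these data known, and their genes below are described by counts. Por, the reductase that passes electrons to microsomal P450 enzymes, had 91.0, 103 and 114 units on MR at 6 h, against 195, 274 and 295 units at 3 h. On Con it had 73.1, 90.5 and 149.7 units at 6 h, against 145, 269 and 287 units at 3 h. It did not overlap between the times on MR, and on Con only m4238, at 149.7 units, reached the lowest 3 h mouse. The log2 fold change was −1.32 (SE 0.16, limma adjusted p = 2.69e-06) on MR and −1.28 (SE 0.16, limma adjusted p = 1.38e-05) on Con. Alas1, the rate-limiting enzyme of haem synthesis, had 42.3, 54.2 and 118 units on MR at 6 h, against 190.1, 353 and 549 units at 3 h, and fell by 2.43 on the log2 scale (adjusted p = 5.20e-04, limma). Con mice had 31.8, 80.1 and 248 units of Alas1 at 6 h, against 105, 195 and 553 units at 3 h, in overlapping groups, and it fell by 1.58 (adjusted p = 0.0217, limma). Of the 10 measured electron donors and partners, 2 were higher and 2 lower on each diet (40% called, against 28.1% of all genes on MR and 19.6% on Con): Cyb5b, a cytochrome b5 (0.95 on MR, 0.55 on Con), and Pgrmc2 (0.35 and 0.38) rose, and Por and Fdx1, the ferredoxin of mitochondrial P450 enzymes (−0.32 and −0.47), fell. Of the 15 haem genes, 3 were higher and 2 lower on MR (33.3% called), and none higher and 2 lower on Con (13.3%). Por, Alas1 and the genes of this and the next paragraph given for time alone were chosen after their values were seen. Between MR and Con at 6 h none of the 10 electron donors and none of 15 haem genes passed, the log2 fold changes of Por and Alas1 being 0.07 and −0.35 (adjusted p = 0.883 and 0.761, limma). Without m4238 one haem gene did, Hmox1, a haem oxygenase, as higher in MR (0.56, adjusted p = 0.00232, limma, against 0.32 with all mice).

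Of 24 measured receptors and partners, 4 were higher and 2 lower at 6 h on MR (25% called, against 28.1% of all genes), and 3 higher and 4 lower on Con (29.2%, against 19.6%). Nr1i2, the PXR gene, had 48.6, 58.8 and 62.7 units on MR at 6 h, against 39.4, 44.3 and 52.8 units at 3 h (log2 fold change 0.35, SE 0.09, adjusted p = 0.00326, limma), and on Con the log2 fold change was 0.32 (SE 0.09, limma adjusted p = 0.00924). Nr0b2, the SHP corepressor, rose by 1.58 on MR and 1.47 on Con (adjusted p = 1.47e-04 and 6.35e-04, limma). Of 12 clock and PAR bZIP genes, 3 were higher and 6 lower on MR (75% called), and 3 higher and 5 lower on Con (66.7%). All 3 PAR bZIP genes were lower at 6 h on both diets. Dbp changed by −0.77 on MR and −0.73 on Con, Tef by −0.76 and −0.76 and Hlf by −0.35 and −0.44 (adjusted p at most 0.00237, limma), while their counterpart Nfil3 rose by 0.36 and 0.33 (adjusted p = 0.0232 and 0.0488, limma). Among 15 genes of retinoid handling, which supply and clear the substrate of Cyp26a1, 6 were higher and 1 lower on MR (46.7% called) and 4 higher on Con (26.7%). Rdh11, a retinal reductase, had 65.1, 88.9 and 119 units on MR at 6 h, against 29.3, 34.0 and 40.3 units at 3 h, without overlap (log2 fold change 1.35, SE 0.24, adjusted p = 1.76e-04, limma), and Dhrs3, another retinal reductase, rose by 0.68 on MR and 0.52 on Con (adjusted p = 2.62e-04 and 0.00527, limma). The medians of these lists between MR and Con at 6 h were 0.06 for receptors, 0.07 for clock and PAR bZIP genes and 0.05 for retinoid handling, against 0.01 over all genes, and none of their genes passed. Without m4238 these medians were 0.03, 0.02 and −0.02, against 0.00 over all genes.

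Related enzymes and shared targets held few calls between MR and Con at 6 h, where 67 of all 9049 genes passed (0.74%). With at most 1 gene called per list, the counts below say little of the lists. Of 27 epoxide hydrolases and other oxidative enzymes 1 was higher in MR, of 17 further CAR and PXR targets 1, of 22 further PPARA targets 1 and of 7 AHR targets none. The oxidative enzyme was Aox1, an aldehyde oxidase, with 30.7, 34.9 and 38.3 units in MR, against 19.2, 20.97 and 26.7 units in Con, without overlap (log2 fold change 0.65, SE 0.13, adjusted p = 0.0168, limma). The CAR and PXR target was Ugt2b35, a glucuronosyltransferase, with 157, 178 and 202 units in MR, against 108, 133 and 155 units in Con, also without overlap (log2 fold change 0.45, SE 0.09, adjusted p = 0.0168, limma). Of all genes, 1.6% separated without overlap between the diets at 6 h. The PPARA target was Fgf21, a liver hormone known to be induced by methionine restriction, with 40.2, 113 and 158 units in MR, against 4.16, 9.65 and 25.4 units in Con (log2 fold change 3.204, SE 0.64, adjusted p = 0.0168, limma), while Acot1, Hadha and Cpt2 of the same list had log2 fold changes of 0.42, 0.17 and 0.14 and did not pass (adjusted p from 0.298 to 0.406, limma). All 3 calls held without m4238, but without m4238, m4223 and m4214 together those of Aox1 (0.59, adjusted p = 0.112, limma) and Fgf21 (3.17, adjusted p = 0.0884, limma) were lost, and that of Ugt2b35 held (adjusted p = 0.0331, limma). All 7 AHR targets, Cyp1a2 among them, had positive values with a median of 0.27, led by Ugdh (log2 fold change 0.41, SE 0.11, adjusted p = 0.106, limma). That median is the value of Cyp1a2 itself, and without m4238 it was 0.20, with 7 positive. Of 15 pericentral genes, 7 of them P450 members, 13 had positive values (median 0.26), and of 11 periportal genes 4 did (median −0.12). None of these genes passed, and m4238 is among the Con mice. In that mouse pericentral Cyp2c29, Cyp2c50, Cyp2c54, Cyp1a2 and Cyp2e1 were low, while Cyp3a11 was high and Cyp2a5 within the range of the others. Without that mouse 10 of the 15 pericentral genes had positive values (median 0.04) and 5 of the 11 periportal ones (median −0.03), against a median of 0.00 over all genes.

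Letters searched in the start regions added little beyond Cyp26a1. A 300-base window was given for 41 members. The D-box TTANGTAA, bound by PAR bZIP factors, stood in 1 of them (Cyp2c38, 2.44%), against 2.32% of 32851 promoters. The E-box CACGTG stood in 2 (Cyp2j6 and Cyp4v3, 4.88%), against 7.15%, and the core GCGTG of the xenobiotic response element in 8 (19.5%), against 32.4%. Direct repeats of the half-site AGGTCA spaced by 1 base (DR1) or by 4 bases (DR4), searched like the others on both strands, stood in none of the 41, against 0.0396% and 0.0152% of all promoters. The repeat DR5 of the Cyp26a1 window was found in no other member. These counts describe the letters in the windows, which end 250 bases before the start.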

How the data were processed

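Liver RNA was sequenced with a 3′ tag kit (Lexogen QuantSeq, forward reads of 50 bases). The deposited table used here is named raw counts, but holds what the authors had already scaled and rounded, treated here as a score: libraries sum to between 991702 and 995314, so depth is unknown and no count test was used, although one had been planned. The submitters' processing notes name DESeq2 1.22.2 and GRCm38. A second deposited table of scores, divided by size factors, served as an alternative. Libraries were rescaled by TMM (trims of 30% and 5%, written for this work), log2(units + 1) was fitted over 24 mice with limma 3.58.1 in R 4.3.3 (statmod 1.5.0; trended, robust prior, no filter), with Benjamini-Hochberg adjustment of p over 9049 genes (threshold 0.05). Single genes were also tested by an exact two-sided permutation test. A fold change on this scale understates the change of low genes. Replicates are separate mice. Members, lists and tests were chosen with earlier results of these data known. Genes were named if past the threshold in a comparison, among the 8 most abundant or the 5 most variable with a mean of at least 10 units, farthest from 0 in their subfamily at 6 h, or classical targets, and up to 4 per further list. Alternatives were other scalings, pseudocounts of 0.5 and 5, a filter, library weights, no trend, only the libraries compared, and leaving out mice. Fits were tested on simulated data.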

Additional observations from a re-analysis of the deposited data

Results flagged for a closer look

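In each group of 6 mice, a level was singled out where the highest or lowest mouse stood far from its nearest neighbour relative to the whole range. Of 220 gene and group pairs 28 were singled out, 16 of them in Con 6 h mouse m4238 and 12 elsewhere, and chance gives about 1 in 20. All values are in scaled units.

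In m4238, Cyp2a4 (258.2), Cyp3a11 (3238) and Cyp4a31 (30.11) were far above the other Con 6 h mice. Far below them in the same mouse were Cyp1a2 (167.9), Cyp2c29 (211.7), Cyp2c37 (38.33), Cyp2c50 (130.5), Cyp2c54 (74.83), Cyp2d9 (259.2), Cyp2d10 (595.9), Cyp2e1 (3807), Cyp2j5 (334.9), Cyp4a12b (12.78), Cyp4f13 (35.59), Cyp4f14 (232.7) and Cyp51 (57.49).

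Among MR 6 h mice, m4214 stood apart in Cyp11a1 (72.58) and Cyp2a4 (1.962), m4219 in Cyp2d26 (1091), m4229 in Cyp3a25 (473.7) and m4239 in Cyp2j9 (3.062). Among MR 3 h mice, m4216 stood apart in Cyp20a1 (9.621) and Cyp4v3 (160.7), m4223 in Cyp2d37-ps (43.31) and m4210 in Cyp4b1 (16.34). Among Con 3 h mice, m4205 was listed at 0 for Cyp26b1, m4233 was low in Cyp3a11 (578.4) and m4220 stood apart in Cyp4f13 (43.44).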

How the results depend on the processing

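No paired analysis was possible because every mouse carries a number of its own. The count of P450 genes past the threshold between MR and Con at 6 h was 1 (Cyp39a1) with library weights, and 0 to 1 when each mouse was left out, the 1 being without Con mouse m4241. At 3 h, and for the difference of the diet effects, it stayed at 0 when each mouse was left out. On Con between the times it was 11 with library weights and 11 without m4238, m4223 and m4214 together. It was 5 to 12 with each mouse left out, from without Con 3 h mouse m4233 to without m4238. The share of all genes called on Con moved too, from 19.6% with all mice to 23.1% without m4238. On MR between the times it was 5 with a mean of at least 10 units, 14 with library weights and 17 with only the libraries compared. It was 7 to 14 with each mouse left out, from without m4229 to without m4238. The filter keeps 46 members and removes Cyp26b1, Cyp2r1, Cyp2j9 and Cyp2b9, which were called on MR. No named call on a kept gene was lost under it. Without m4238, 31.4% of all genes passed on MR, against 28.1% with all mice. For the other settings the share of all genes is not given here, so those counts are not particular to P450 genes. The members' medians moved by less than 0.1377 (log2), the SD of their median deviation between single mice, m4238 included. That SD is not the spread of a difference between groups. Without m4238 the median between MR and Con at 6 h went from 0.11 to 0.01, and that of the difference of the diet effects from 0.03 to −0.07. With each mouse left out the median was 0.01 to 0.17 between MR and Con at 6 h, 0.01 to 0.09 at 3 h, 0.01 to 0.15 between the times on Con and 0.11 to 0.18 on MR.

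Some log2 fold changes, none of which passed the threshold with all mice, changed sign. With library weights these were Cyp2c54 between the times on Con (0.23) and, between MR and Con at 6 h, Cyp17a1 (0.30), Cyp2a4 (0.33) and Cyp2e1 (−0.0063). With a pseudocount of 0.5 Cyp17a1 was 0.0029. Without m4238, m4223 and m4214 together, Cyp2c54 (0.40) and Cyp2d13 (0.015) between the times on Con changed sign, and so did, between MR and Con at 6 h, Cyp17a1 (0.41), Cyp1a2 (−0.0070), Cyp2a4 (0.60), Cyp2d9 (−0.083), Cyp2e1 (−0.10), Cyp2r1 (−0.090), Cyp4b1 (0.042), Cyp4v3 (−0.019) and Cyp51 (−0.045). With each mouse left out the values ran, between the times on Con, from −0.17 to 0.40 for Cyp2c54 and from −0.15 to 0.015 for Cyp2d13. Between MR and Con at 6 h they ran from −0.30 to 0.33 for Cyp17a1, −0.34 to 0.17 for Cyp26b1, −0.90 to 0.70 for Cyp2a4, −0.038 to 0.47 for Cyp2d9, −0.067 to 0.14 for Cyp2e1, −0.096 to 0.11 for Cyp2r1, −0.014 to 0.10 for Cyp4v3 and −0.035 to 0.30 for Cyp51. The cause was not tested. Cyp2r1 (adjusted p = 0.11, limma) and Cyp3a11 (adjusted p = 0.0695, limma) on Con lost their calls with only the libraries compared, and Cyp2b9 on MR (adjusted p = 0.0673, limma) with a pseudocount of 5. Depth is unknown, so genes of a few units rest on few reads.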
